A study of Mus musculus with 32 samples.

Results

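A set of 5 transcribed features of the mouse genome that are not ordinary messenger RNAs was followed through the soma and the dendrites of single neurons: Gm13340 and Gm11407, which are nuclear copies of mitochondrial genes, Gm26870, which is annotated as a long noncoding RNA, and GU332589 and BC069931, which have a symbol in the counts but no gene model in the annotation used here. They are 5 of the 44081 genes of the 3′UTR count table and were chosen by their read counts, for high reads in dendrites, so their dendrite over soma values are a description and carry no test. No threshold was attached to the choice. The mitochondrial ribosomal RNAs mt-Rnr1 and mt-Rnr2 are given for reference.

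Hippocampal neurons of C57BL/6 mice, taken at embryonic day 18, had been cultured for 15 days. The soma and the dendrites of 16 single neurons were drawn into separate pipettes, which gave 16 dendrite samples and 16 soma samples paired by neuron, all untreated. Poly-adenylated RNA was amplified by in vitro transcription (aRNA) in 3 rounds for 4 neurons and in 2 rounds for 12, and the samples of 14 neurons carried ERCC spike-in RNA. The reads were counted on the 3′UTR region of each gene, and 646521 to 6954420 reads were counted in dendrites and 925525 to 21169974 in somas.

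Mitochondria keep a small genome of their own, and its ribosomal RNAs belong to the most abundant RNAs of cells with many mitochondria, which dendrites have. Pieces of that genome have been copied into the nuclear chromosomes during evolution, where they stay as pseudogenes that resemble their parent. The centromeres of mouse chromosomes are flanked by long arrays of a short satellite sequence, from which noncoding RNA can be made.

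Gm13340 is an unprocessed pseudogene of 1545 bases in 1 exon at chr2:22588103-22589647 on the minus strand (GRCm38). Over all 1545 bases it differed from mt-Co1, a subunit gene of cytochrome c oxidase at chrM:5328-6872, at 37 positions with no gap, which is 97.6% identity. Of these differences 33 were transitions, and 14 lay in the last 500 bases. Gm11407 is a processed pseudogene of 1058 bases in 1 exon at chr4:80002331-80003388 on the plus strand, and matched bases 748 to 1803 of mt-Nd5, a subunit gene of respiratory complex I at chrM:11742-13565, with 79 substitutions, 2 gap positions and 92.5% identity. A stretch of 30 bases from the last 500 bases of Gm13340 is given with that of mt-Co1, with differing bases in capitals. It is shown because a read can be assigned to a copy only through such bases. Sequences are from the GENCODE M21 transcripts, 5′ to 3′.
Gm13340 1458 to 1487: AtatgcCtcaacaaatttagaatgacttca
mt-Co1 1458 to 1487: GtatgcTtcaacaaatttagaatgacttca
Counted from the first base of the mitochondrial transcript, with its base first, the pair differs by G1458A and T1464C.

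The authors counted only reads that mapped to 1 place in the genome, and reads were 75 or 100 bases long. Of the 1471 windows of 75 bases in Gm13340, 220 (15.0%) were identical to mt-Co1, and of the 1446 windows of 100 bases 80 were (5.53%). Gm11407 had 21 of 984 windows of 75 bases (2.13%) and 0 of 959 windows of 100 bases in common with mt-Nd5. Most windows of both copies thus held at least 1 base that sets them apart from the parent. The counts hold 24 mitochondrially encoded genes, the ribosomal and transfer RNAs, with no row for mt-Co1 or mt-Nd5, so the copies could not be set beside the reads of their parents. How many reads were split or misplaced between a copy and its parent was not tested, and the values of both copies are uncertain for that reason.

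Gm26870 lies at chr9:3000282-3038313 on the minus strand and has 3 transcripts of 1170, 1143 and 1170 bases with 4, 3 and 2 exons. Each was a tandem repeat: shifted against itself by 234 bases, the first transcript was identical to itself at 81.5% of positions, the second at 95.9% and the third at 78.3%, beside a median of 30.4% to 30.6% over shifts of 10 to 300 bases. These values allow no gaps. With gaps allowed, the self-alignments at that shift had 97.3%, 96.1% and 94.6% identity. The unit of 234 bases was built of 4 related subunits of 58 to 59 bases, the known layout of the mouse major satellite. The first 30 bases of 5 successive subunits of the first transcript are printed to show the repeat, with capitals at the 16 positions that vary among the 20 subunits of that transcript.
Gm26870 subunit 1: AGaAAacTgaaaaTCATGGAaaatGAGAaa
Gm26870 subunit 2: AAaTCacTgaaaaACGTGAAaaatGAGAaa
Gm26870 subunit 3: AGaAAacTgaaaaTCACGGAaaatGAGAaa
Gm26870 subunit 4: GGaAAacAgaaaaAGGTGGAaaatTTAGaa
Gm26870 subunit 5: AGaAAacTgaaaaTCATGGAaaatGAGAaa
Subunit 5 is the first of the next unit and has the same 30 bases as subunit 1. Among the 20 subunits, those at the same place in the unit shared a median of 30 of these 30 bases and those at different places 22. Only reads that mapped to 1 place were counted, and how much of such a repeat they can cover was not tested. The levels and the shares of the ends of Gm26870 are uncertain for that reason. For GU332589 and BC069931 no sequence or position is given, since neither has an entry in the annotation used.

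**Figure D1:**
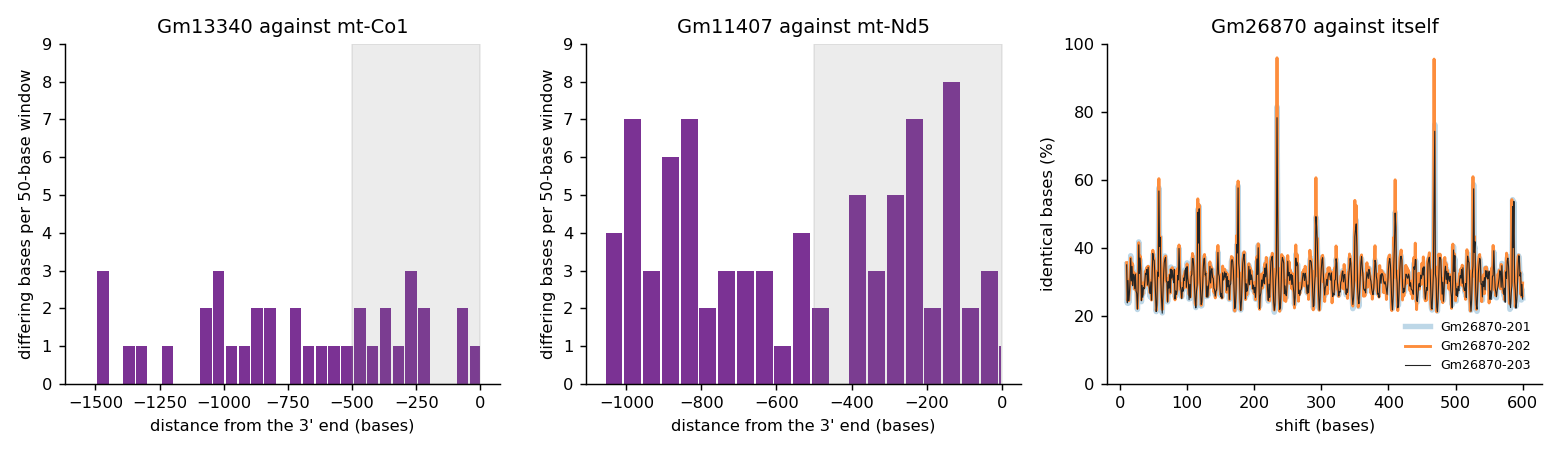
Differing bases per 50-base window along Gm13340 against mt-Co1 (left) and Gm11407 against mt-Nd5 (middle), by distance from the 3′ end in bases with the last 500 bases in grey, and the percent of bases at which each Gm26870 transcript is identical to itself by shift in bases (right). Windows of Gm13340 hold 0 to 3 differences and those of Gm11407 0 to 8, and among the shifts of 10 to 600 bases drawn for Gm26870 that of 234 gives the highest peak.

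All 3 members with a transcript were poor in G and C. The GC content was 39.7% for Gm13340, 36.4% for Gm11407 and 35.6% to 36.2% for the transcripts of Gm26870, beside a median of 49.2% over the 141767 transcripts of the annotation. In its last 500 bases Gm11407 held a run of 8 A, and 6.60% of all transcripts held a run at least as long. The last 500 bases of Gm26870 had A at 43.6% to 46.4% of positions.

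Levels are given as CPM, the counts of a gene scaled to a common library size with TMM, and ratios as log2 of the dendrite over the soma CPM of a neuron after 1 was added to both. The reads carried no molecular identifiers, so errors are the spread between neurons (SD), which counting error of reads does not cover. The scale is relative: on it, the median over the 10880 genes tested was a log2 ratio of -1.08, and in the paired edgeR fit it was -1.49. Levels are compared between samples for 1 gene, not between genes.

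Gm13340, the copy of mt-Co1, had 58 to 863 reads in dendrites and 15 to 450 in somas, so every sample had reads. Its level was 31.1 CPM in the lowest dendrite, 128 at the median and 1095 in the highest, and 1.06, 10.2 and 107 CPM in somas. Dendrites were higher than the soma of the same neuron in 16 of 16 neurons, although the ranges of the groups overlapped. The mean log2 ratio was 3.40 ± 1.08 (SD, n = 16), and the neurons ran from 0.56 in neuron 2 to 4.94 in neuron 8.

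Gm11407, the copy of mt-Nd5, had the fewest reads of the 5, with 13 to 611 in dendrites and 1 to 198 in somas. In 2 somas there were 3 reads or fewer. Dendrite levels were 13.3 CPM at the lowest, 33.0 at the median and 327 at the highest, and soma levels were 0.55, 2.57 and 18.1 CPM. The highest soma, that of neuron 16, lay within the range of the dendrites, and 11 of the 16 dendrites were above it. The mean log2 ratio was 3.38 ± 1.34 (SD, n = 16), positive in 16 of 16 neurons, from 1.30 in neuron 16 to 6.66 in neuron 8.

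Pooled over all samples, Gm26870, the satellite RNA, took most of the reads of the 5 members. Together the 5 made up 0.269% to 8.70% of the dendrite reads and 0.0262% to 8.17% of the soma reads. In some samples GU332589 had more reads, as in the dendrites of neuron 15 with 10956 against 3149. Gm26870 had 1993 to 66192 reads in dendrites and 186 to 75053 in somas. The level ran from 352 CPM in the lowest dendrite over a median of 11732 to 88578 in the highest, a 251-fold range. Somas ran from 17.0 over 2324 to 74082 CPM, so the ranges of the groups overlapped. Only 1 dendrite exceeded all somas, although 12 of 16 were above the soma median. The contrast appeared within neurons: the mean log2 ratio was 2.72 ± 1.59 (SD, n = 16) and was positive in 15 of 16. In neuron 2 both compartments were high and the ratio was -0.02, and in neuron 16, whose soma was the lowest of all, it was 6.36.

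GU332589 had 438 to 14796 reads in dendrites and 104 to 10301 in somas. Its dendrite levels were 577 CPM at the lowest, 2333 at the median and 7251 at the highest, and its soma levels 23.1, 261 and 941 CPM. Of the 16 dendrites, 14 were above every soma, the clearest separation among the 5. The mean log2 ratio was 3.19 ± 1.48 (SD, n = 16), and neuron 14 was the exception with 777 CPM in dendrites, 923 in the soma and a ratio of -0.25.

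BC069931 had 101 to 4731 reads in dendrites and 32 to 4445 in somas. Levels in dendrites were 95.9, 441 and 3131 CPM (lowest, median, highest), and those in somas 11.5, 47.9 and 406 CPM. Dendrites were higher in 16 of 16 neurons and 10 of them were above every soma. The mean log2 ratio was 3.14 ± 1.23 (SD, n = 16), with the smallest, 0.20, again in neuron 14.

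**Figure D2:**
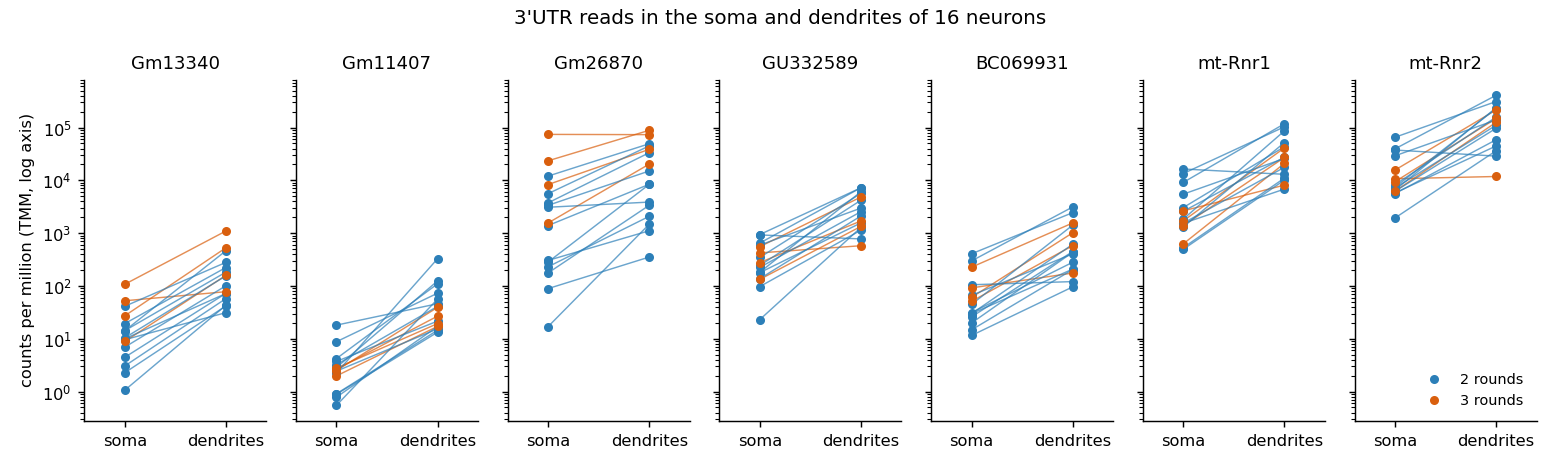
Level of each member and of mt-Rnr1 and mt-Rnr2 in the soma and the dendrites of 16 neurons, in CPM on a log axis, with lines joining the compartments of 1 neuron and color for the rounds of amplification. Lines rise toward the dendrites in 15 or 16 of 16 neurons for each gene, and the Gm26870 levels spread most within a compartment.

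A scaled level higher in dendrites in at least 15 of 16 neurons, as for all 5 members, was found for 99 of the 10880 genes (0.91%). The 5 were also among the 90 genes called higher in dendrites by edgeR (0.827% of the genes tested), beside 621 called higher in somas (5.71%). Both counts follow from how the members were picked. Raw reads gave the same order in most pairs: although the somas had more reads in all, dendrites had the larger raw count in 15 of 16 neurons for Gm13340 and Gm26870, 14 for Gm11407 and GU332589, and 12 for BC069931. Only 28 genes (0.257%) had more raw reads in dendrites in at least 12 neurons. That the members are among these also follows from how they were picked.

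In the paired edgeR fit the log2 fold change was 3.63 (SE 0.76) for Gm13340, 3.84 (SE 0.96) for Gm11407, 2.69 (SE 0.33) for Gm26870, 3.26 (SE 0.45) for GU332589 and 3.22 (SE 0.56) for BC069931. The reference RNAs had 3.62 (SE 0.33) for mt-Rnr1 and 3.41 (SE 0.29) for mt-Rnr2. Without the pairing by neuron Gm26870 was at 1.51 (SE 0.88) and no longer called. Whether a member is called describes the fit and is no test, since the members were picked for high dendrite reads. Relative to the median gene, the members lay 4.18 to 5.33 log2 units higher. With spike-in reads in place of the library total, in the 14 neurons that had them, the fold changes were smaller, 1.34 (SE 1.30) for Gm13340, 1.57 (SE 1.52) for Gm11407, 0.51 (SE 0.58) for Gm26870, 0.85 (SE 0.88) for GU332589 and 0.88 (SE 1.16) for BC069931, and none of the 5 was called. Their distance to the median gene was then 4.47 to 5.52. On the spike-in scale edgeR called 16 genes in favor of dendrites and 6681 in favor of somas, against 90 and 621 on the TMM scale.

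**Figure D3:**
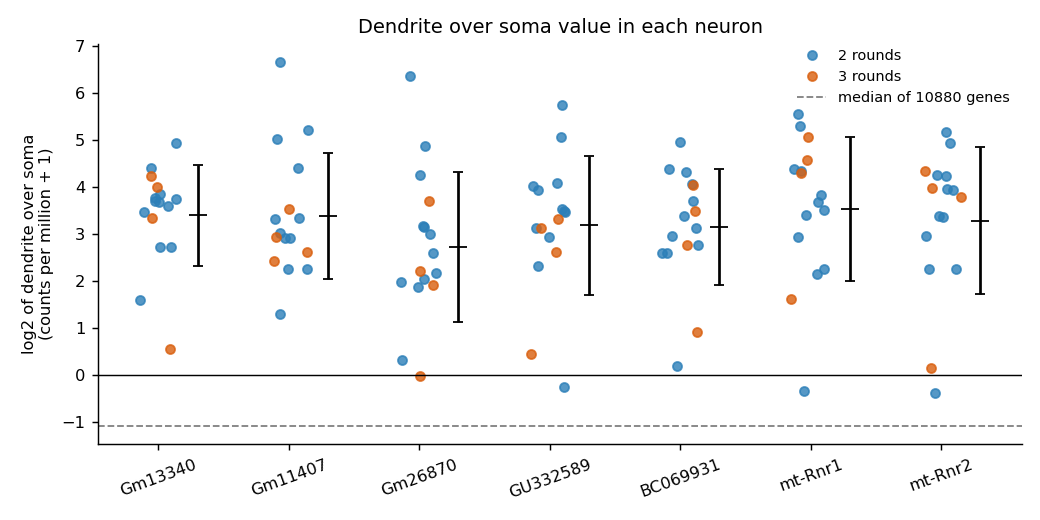
Log2 of dendrite over soma level for each neuron, with the mean ± SD (n = 16) beside the points and the median of 10880 genes as a dashed line at -1.08. The means of the members lie between 2.72 and 3.40, and the lowest point belongs to neuron 2 for Gm13340 and Gm26870, to neuron 14 for GU332589 and BC069931, and to neuron 16 for Gm11407.

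The spike-in scale sets the members against a fixed amount of added RNA. Per spike-in read, the dendrites had fewer 3′UTR reads in all than the soma in 13 of 14 neurons, with a log2 ratio of -2.30 ± 1.54 (SD, n = 14). Gm13340 per spike-in read was higher in the dendrites in 11 of 14 neurons (log2 1.38 ± 1.85, SD, n = 14), and Gm11407 in 10 (1.58 ± 2.62). For Gm26870 it was higher in 8 of 14 (0.54 ± 1.53), for GU332589 in 9 (0.95 ± 2.09) and for BC069931 in 9 (0.91 ± 2.06). The mean was smaller than the SD between neurons for all 5. Less RNA drawn from the dendrites and less RNA per volume of dendrite cannot be told apart here.

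The gene most alike in pattern to GU332589, and also to BC069931, was the mitochondrial ribosomal RNA mt-Rnr2. Likeness was measured as the Spearman correlation of log2 CPM over the 32 samples after the mean of each compartment was removed. With GU332589, the 3 most alike of all genes tested were mt-Rnr2 (0.93), mt-Rnr1 (0.91) and BC069931 (0.82). For BC069931 they were mt-Rnr2 (0.91), Gm10222 (0.90), which is another nuclear copy of mitochondrial sequence, and mt-Th (0.87), the mitochondrial histidine transfer RNA, while GU332589 ranked 6 (0.82) and mt-Rnr1 ranked 13 (0.75). Over all genes the median was -0.14 for both, and the value that 1% of genes exceeded was 0.47 and 0.49.

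The relation was present in each compartment by itself. For GU332589 and mt-Rnr2 Pearson's r was 0.92 and Spearman's rho 0.94 over 16 dendrites, and 0.91 and 0.95 over 16 somas. Without the 2 samples farthest from the median of mt-Rnr2, r was 0.88 in dendrites and 0.92 in somas. For BC069931 and mt-Rnr2, r was 0.88 (rho 0.93) in dendrites and 0.87 (rho 0.88) in somas, and without the 2 farthest samples 0.93 and 0.75. These values share libraries, depth and scaling with each other.

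Counted against the ribosomal RNAs of the same library, both were nearly level between compartments. GU332589 had 9.14 to 30.3 reads per 1000 reads of mt-Rnr1 and mt-Rnr2 in dendrites (median 18.5) and 9.49 to 41.3 in somas (median 20.1). The log2 ratio of dendrite to soma on this scale was -0.14 ± 0.73 (SD, n = 16), higher in dendrites in 9 of 16 neurons. BC069931 had 2.03 to 8.79 reads per 1000 in dendrites (median 3.93) and 1.76 to 13.1 in somas (median 4.80), with a log2 ratio of -0.16 ± 0.64 (SD, n = 16) and 8 of 16 neurons higher in dendrites. This scale does not depend on library size.

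Within each compartment, the copies followed mt-Rnr2 less closely than GU332589 and BC069931 did. Gm13340 had an r of 0.62 (rho 0.70) with mt-Rnr2 in dendrites and 0.47 (rho 0.71) in somas, and per 1000 ribosomal RNA reads its dendrite to soma ratio was 0.26 ± 0.83 (SD, n = 16). The genes most alike to it were Gm13341 (rho 0.89), another copy of mitochondrial sequence, mt-Td (0.84) and mt-Te (0.82), the transfer RNAs for aspartate and glutamate. For Gm11407, r with mt-Rnr2 was 0.38 (rho 0.55) in dendrites and 0.83 (rho 0.71) in somas. In dendrites its r without the 2 farthest samples was 0.56. The closest genes to Gm11407 were Atp5g1 (0.68), a subunit gene of ATP synthase, Mrpl28 (0.67), a protein gene of the mitochondrial ribosome, and Gm3272 (0.67), which had a median of 0 reads in dendrites and 3 in somas. Per 1000 ribosomal RNA reads the ratio of Gm11407 was 0.60 ± 1.67 (SD, n = 16). For the dendrite minus soma difference of a neuron, r with mt-Rnr2 was 0.90 for Gm13340, 0.89 for GU332589 and 0.92 for BC069931. Without the 2 farthest neurons these were 0.74, 0.64 and 0.73. For Gm11407 it was 0.32, and 0.73 without the 2 farthest.

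Gm26870 did not share this pattern. Its r with mt-Rnr2 was -0.37 in dendrites and -0.40 in somas (rho -0.32 and -0.12), and without the 2 farthest samples -0.26 and -0.02. Per 1000 ribosomal RNA reads its value ranged from 3.07 to 3676 in dendrites and from 0.215 to 5551 in somas. On this scale the dendrite to soma log2 ratio of Gm26870 was -0.60 ± 2.14 (SD, n = 16), higher in dendrites in 4 of 16 neurons. The genes most alike to it were Gm26909 (rho 0.79), Gm20620 (0.76) and Mast4 (0.76), a kinase gene, and all had medians of at most 19 reads in either compartment. GU332589 and BC069931 stood at -0.19 and -0.20 with it.

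**Figure D4:**
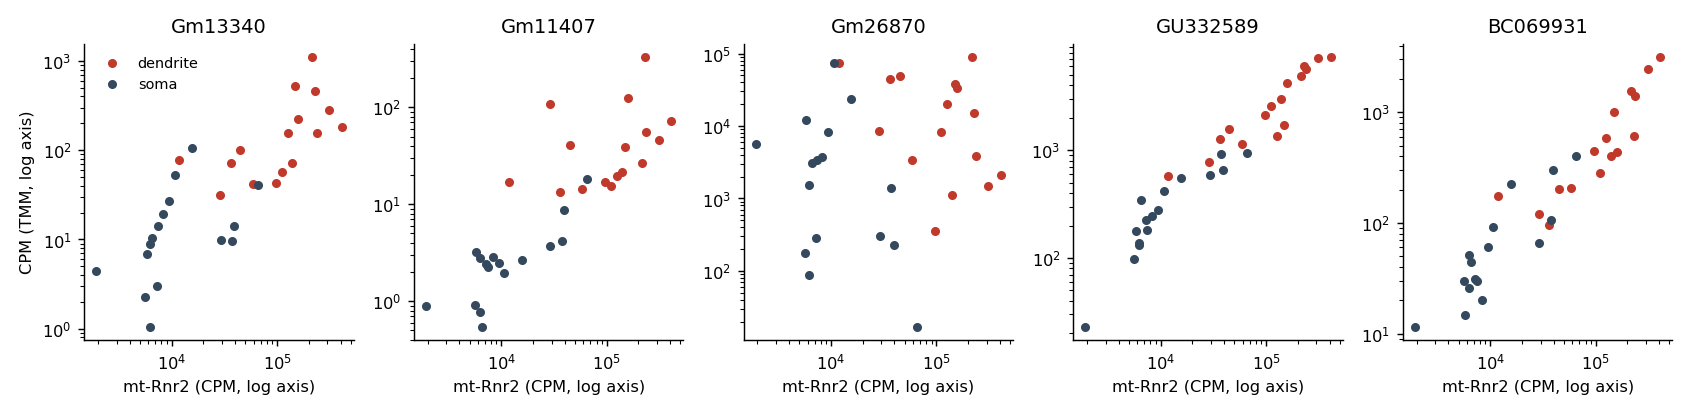
Level of each member against that of mt-Rnr2 in the same sample, both in CPM on log axes, for 16 dendrites and 16 somas. Points of GU332589 and BC069931 lie along 1 band through both compartments, those of Gm26870 do not.

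What Gm26870 did share was the neuron. Its dendrite and soma levels were related over the 16 neurons with r = 0.88 and rho 0.93 (0.89 without the 2 farthest neurons), beside 0.74 for Gm13340, 0.66 for BC069931, 0.32 for GU332589 and 0.31 for Gm11407. The level also went with the first letter of the sample name, whose meaning the labels do not give. Dendrites had 73258 to 88578 CPM under B (2 neurons), 20303 to 38582 under H (2), 15043 to 49281 under I (4), 352 to 3367 under M (3), 3870 to 8421 under N (3) and 1478 to 2084 under P (2). Somas had 23445 to 74082 CPM under B, 1558 to 8322 under H, 3364 to 12034 under I, 89.0 to 304 under M, 284 to 3091 under N and 17.0 to 231 under P. Differences between letters held 90.2% of the variance of the log2 level in dendrites and 86.6% in somas. For BC069931 they held 51.4% in dendrites and as much as 86.4% in somas, and for the other 3 members 34.0% to 48.7% in dendrites and 50.2% to 72.4% in somas. With the mean of each letter removed, the r of Gm26870 between compartments was 0.24.

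**Figure D5:**
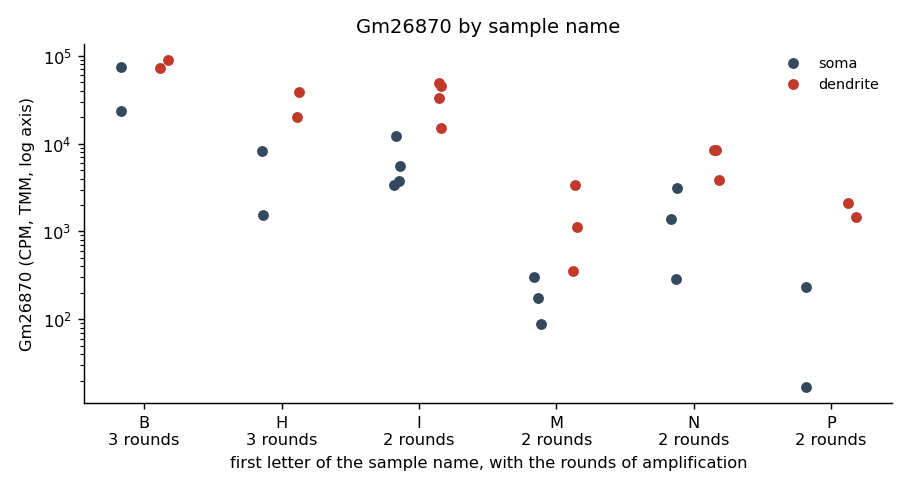
Gm26870 level in CPM on a log axis for somas and dendrites, by the first letter of the sample name and with the rounds of amplification of each letter. Dendrites range from 352 to 88578 CPM, and neurons of 1 letter lie closer to each other than that.

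The dendrite over soma ratio was also split by letter, with 2 to 4 neurons under each. The members were picked for high dendrite reads, so the split describes them and is no test. Single neurons differed: under B Gm26870 was at 1.92 and -0.02, and under N GU332589 was at -0.25 in neuron 14. Mean log2 ratios were above 0 for all 6 letters and all 5 members, from 0.95 to 4.77 for Gm26870, 1.95 to 4.12 for Gm13340, 2.11 to 4.48 for Gm11407, 1.79 to 4.50 for GU332589 and 1.85 to 3.84 for BC069931. The relation to mt-Rnr2 also remained with letter means removed, with r = 0.99 in dendrites and 0.93 in somas for GU332589 and 0.94 and 0.87 for BC069931. For Gm13340 it was 0.93 and 0.74, above the values without that step. For Gm11407 it was 0.40 and 0.86, near the values without that step.

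The rule did not use the rounds of amplification, so the members were compared between neurons of 3 and 2 rounds. All neurons under B and H had 3 rounds and all others 2, so rounds and letters cannot be told apart. The tests took neurons as independent, although neurons of 1 letter had like levels of Gm26870. Over the 6 letters there are 15 ways to choose the 2 with 3 rounds, and p could not go below 0.0667. In somas, Gm26870 had a median of 15884 CPM with 3 rounds (1558 to 74082, n = 4) and 849 with 2 rounds (17.0 to 12034, n = 12). The log2 difference was 4.08 (two-sided exact permutation test, all 1820 ways to split the neurons, p = 0.0214), and in edgeR it was 3.46 (SE 1.01, adjusted p = 0.107). Without neuron 2 the edgeR difference was 2.24 (SE 1.10, edgeR adjusted p = 0.590). In dendrites the medians were 55920 and 6133 CPM, with a log2 difference of 3.05 (exact permutation test, two-sided, p = 0.0231). In edgeR the difference in dendrites was 1.96 (SE 0.98, edgeR adjusted p = 0.935). The 4 neurons under I, with 2 rounds, had dendrite levels that overlapped those with 3 rounds.

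Gm13340 in somas was 39.7 CPM at the median with 3 rounds and 9.78 with 2, a log2 difference of 1.97 (exact permutation test, two-sided, p = 0.0192) with an edgeR adjusted p of 0.349. In dendrites it was 342 and 86.3 CPM (exact permutation test, two-sided, p = 0.0714), and the edgeR difference there fell from 1.71 (SE 1.08) to 0.78 (SE 1.43) without neuron 1. For Gm11407, GU332589 and BC069931 the exact p ranged from 0.240 to 0.840 over both compartments. These exact p are among 15 computed, 3 for each member. After Benjamini-Hochberg adjustment over the 15, none passed 0.05 and the smallest was 0.115, for Gm26870 in both compartments and Gm13340 in somas. Adjusted over all genes, edgeR called none of the 5 in dendrites, where it called 3 genes higher (0.0276%) and 0 lower (0%) with 3 rounds, and none in somas, where it called 77 higher (0.708%) and 44 lower (0.404%). In dendrites 626 genes had an unadjusted p under 0.05, and DESeq2 called 7 higher and 3 lower. DESeq2 called Gm26870 and Gm13340 higher with 3 rounds in somas (log2 3.91 and 2.52, DESeq2 adjusted p = 0.0165 and 0.0433).

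The dendrite over soma difference itself was compared between the rounds as well. The mean log2 ratio was 1.95 ± 1.53 (SD, n = 4) with 3 rounds and 2.98 ± 1.59 (SD, n = 12) with 2 for Gm26870 (exact permutation test, two-sided, p = 0.282), and 2.38 ± 1.32 and 3.46 ± 1.48 for GU332589 (p = 0.212 from the same exact test). For the other 3 members the exact p was 0.403 to 0.568. The edgeR interaction was between -1.10 (SE 0.96) for GU332589 and -0.48 (SE 1.22) for BC069931, with an adjusted p of 1 for all 5. It called 0 of the 10880 genes in either direction (0%), with 288 at an unadjusted p under 0.05, while DESeq2 called 28 larger and 21 smaller. With SEs up to 2.00, differences of a few log2 units were not detectable.

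Where along the RNA the reads fell was compared through the isoform counts, which cover the last 500 bases of each 3′ end. Relative to the gene count, they held a median of 92.5% of the Gm13340 reads in dendrites and 92.5% in somas, and 87.2% and 88.1% for Gm11407. For BC069931 the medians were 88.7% and 88.7%, and for GU332589 59.8% and 56.4%. Gm26870 had 3 ends, of which the first took 51.5% ± 9.49 (SD, n = 16) in dendrites and 52.8% ± 9.00 in somas, the third nearly all the rest and the second at most 0.210% in any sample. The paired difference of the first end was -1.31 ± 3.97 percentage points (SD, n = 16), higher in dendrites in 5 of 16 neurons, which is within the spread between neurons.

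Genes related to the members by sequence were counted from the same fit. Outside the members, 29 nuclear genes of the annotation end in sequence that matches a mitochondrially encoded transcript over at least 100 bases at 80% identity or more. Of these 7 were in the count table, all 7 were tested and 6 were called higher in dendrites, beside 0.827% of all genes. Their median log2 fold change was 3.02 against -1.49 for all genes. The 5 with the smallest p were Gm12155 (3.30, SE 0.74), Gm11408 (3.06, SE 0.78), Gm13341 (3.02, SE 0.81), Gm10222 (2.94, SE 0.80) and Gm11410 (3.02, SE 0.83), with edgeR adjusted p from 0.0124 to 0.0249. Gm12155 and Gm11408 had few reads, with medians of 2 and 3 in dendrites and 1 in somas. Each of them had reads in 13 dendrites and 9 somas. Gm13339 was at 2.92 (SE 0.96) with an edgeR adjusted p of 0.0533. Reads can be split among such copies, so they are not independent of Gm13340 and Gm11407.

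Of 10 further copies of mitochondrial sequence listed by symbol, 3 were in the table, Gm13341, Gm10222 and Gm13339 above, and 2 were called. Of the 24 mitochondrially encoded genes 17 were tested and 14 called higher in dendrites, with a median log2 fold change of 3.00. Those called included mt-Tk, mt-Tg and mt-Tr, each with a median of 1 read in dendrites. For Gm26870, 12 genes ended in related satellite sequence, the same 12 as listed by symbol, and 0 of them were in the count table. Of 6 genes with ribosomal RNA sequence 4 were in the table and 2 tested, AY036118 (log2 fold change 0.49, SE 0.97) and Lars2 (-0.18, SE 0.84), and neither was called.

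The samples were checked against markers of the neuron and of other cells. The dendrite markers Map2, Camk2a, Dlg4 and Shank1 summed to 192 to 6927 CPM in dendrites (median 2494) and 97.7 to 968 in somas (median 474). The nuclear RNAs Malat1, Meg3, Miat and Snhg11 summed to 1.32 to 1754 CPM in dendrites (median 516) and 32.8 to 12136 in somas (median 1795), opposite in direction to Gm26870. Sums of 6 astrocyte markers were 0 to 1675 CPM in dendrites and 0.541 to 514 in somas, of 6 microglial markers 0 to 386 and 0 to 8.88, of 6 oligodendrocyte markers 0 to 609 and 0.0913 to 330, and of 5 endothelial markers 0 to 44.5 and 0 to 129, with 1 of these 5 at 0 in every sample. Their part in the members' values was not tested. The dendrites of neurons 15 and 16 had the fewest detected genes and the highest share of mitochondrially encoded reads (up to 35.8%). Without these 2 neurons the log2 fold changes of the members were 2.53 to 4.16, and without neuron 5, whose dendrites had more detected genes than its soma, 2.74 to 3.85.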

How the data were processed

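Per the study's methods and the labels, the authors aligned trimmed reads to mm10 with STAR 2.4.0 and used VERSE for stranded counts of those that mapped uniquely. All deposited values are raw counts, per gene on the union of its 3′UTR regions (44081 genes), per isoform feature (74532) and per exon set with 92 ERCC spike-ins. From these counts, 10880 genes (1 read or more in 16 samples or more) were fitted with R 4.3.3 and edgeR 4.0.16 (TMM, robust quasi-likelihood test, neuron as a block, Benjamini-Hochberg adjusted p at most 0.05). The fits were tested on simulated data. DESeq2 1.42.0 was an alternative, as were other scalings, filters and sets of neurons, 1 of them (without neurons 15 and 16) chosen after seeing the data. Python 3.11.15, NumPy 2.4.6, pandas 2.3.3, SciPy 1.17.1, Biopython 1.88 and BLAST 2.17.0 gave the other values.

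Depth was 646521 to 21169974 reads per sample, and precision was taken from the spread between neurons. Nothing says that the neurons came from separate animals, and 0 pairs of libraries were identical. Both compartments of a number come from 1 cell, which is the pairing. Deviations from the compartment means over genes correlated at 0.09 ± 0.08 (SD) over the 16 pairs of 1 neuron, and at -0.01 ± 0.05 (SD) over 240 pairs across neurons.

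The members and lists were chosen with earlier results of these data known. Named genes are the members, both mitochondrial ribosomal RNAs, the 3 genes most alike to each member and at most 5 genes of each list. Sequences and positions are from GENCODE M21 (GRCm38, the mouse build that mm10 also names). Matches were computed on the last 500 bases of transcripts, since a genome sequence was not used here, and uniqueness in the genome was not analysed. Exon counts list none of the members and were used for the spike-ins.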

Additional observations from a re-analysis of the deposited data

Results flagged for a closer look

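Among 21 groups of values from the 4 neurons of 3 rounds, 1 held a value far from the other 3 by Dixon's criterion, which chance gives for about 1 group in 20. It was the dendrite over soma log2 ratio of mt-Rnr2 in neuron 2, at 0.14. In that neuron the ratio of Gm26870 was -0.02 and that of Gm13340 0.56, the lowest of all neurons for both.

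The samples of neurons 1 and 2, labelled as carrying no spike-in RNA, still held reads on ERCC sequences, 65 and 72 in the dendrites and 59 and 80 in the somas. These 2 neurons were left out of all values per spike-in read.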

How the results depend on the processing

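The log2 fold changes of all 5 members stayed above 0 in every alternative, and moved by less than the SD between neurons in all but 1. With spike-in reads as library size they were 1.34 (Gm13340), 1.57 (Gm11407), 0.51 (Gm26870), 0.85 (GU332589) and 0.88 (BC069931), each about its SE or less, and none was called. The scale itself lowered the median gene to -3.96. In the paired design, leaving out the replicate block moved the members' fold changes to between 1.51 and 4.02 (Gm26870 gave the lowest, against 2.69) and the median gene to -0.22. Without it Gm26870 was not called, and no call of the other 4 changed. Signs and calls of the members are a description here, since the members were picked for high dendrite reads. Calls were also lost for Gm11407 with no filter and in the 12 neurons of 2 rounds, and for Gm13340, Gm11407 and BC069931 in the 4 of 3 rounds. Isoform counts gave 2.70 to 3.68, and exon counts could not be used because they do not list the members. The cause of the changes below was not tested except where stated.

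Genes called higher in dendrites and in somas, 90 and 621, became 463 and 5029 with DESeq2, 15 and 143 with no filter (more genes tested), 157 and 77 with no replicate block, 43 and 354 in the 12 neurons of 2 rounds, 4 and 1 in the 4 of 3 rounds (fewer neurons) and 16 and 6681 with spike-in reads. Those higher in somas became 1008 with relative log expression scaling, 990 without neuron 5 and 101 without neurons 15 and 16. For rounds, DESeq2 called 28 and 21 genes in the interaction, 7 higher and 3 lower in dendrites, and 206 and 294 in somas. With no filter there were 753 and 21 in dendrites and 2601 and 134 in somas, and relative log expression scaling gave 144 higher in somas. Leaving out each neuron of 3 rounds gave 20 to 98 higher and 5 to 51 lower in somas. There the low counts came without neuron 2 (20 and 5), when Gm26870 was at 2.24, and neuron 1 (32 and 10).

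Signs turned only for differences smaller than their SE or near it. With 3 rounds BC069931 in dendrites was 0.0223 with DESeq2, 0.0222 with relative log expression scaling and 0.49 on the scale of the exact permutation test, and -0.48 to 0.33 when 1 neuron was left out. In somas BC069931 was -0.33 to 0.57 with 1 neuron left out. GU332589 in somas was 0.29 with DESeq2, 0.29 with relative log expression scaling, 0.27 on the permutation scale, and -0.34 to 0.25 with 1 neuron left out. The interaction without 1 neuron ran from -1.05 to 0.16 for Gm13340 and from -0.99 to 0.11 for BC069931, each turning positive without neuron 2. Read depth limited Gm11407 most, with 3 reads or fewer in 2 somas, and 4 neurons of 3 rounds limited every comparison of rounds.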
